A study of Sus scrofa with 6 samples.

Results

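The intestinal identity transcription factors described here are DNA-binding proteins that set and keep the character of the gut epithelium. The list was fixed by name: the zinc-finger factors GATA4, GATA5 and GATA6, the homeobox factors CDX1, CDX2 and PDX1, and the nuclear receptors HNF4A and HNF4G. Of the 8 listed genes, 6 had a pig Ensembl identifier in the table of gene names and a row among the 21911 genes of the deposited table. CDX1 and PDX1 had no identifier under those symbols in the name table and were not analysed here. RNA was sequenced from pig tissue labelled gut, in 3 libraries of a group named SMP and 3 libraries of a group named Control. Per the design text of the series and the labels, the compared animals were piglets, those of the SMP group drinking an alkaline mineral water based on metasilicate. The sources used here do not state the strain, exact age, sex, gut segment or length of treatment, and the labels do not say that each library came from its own animal. The p-values below therefore measure the spread between these libraries.

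In the vertebrate gut, CDX2 is the homeobox factor that makes endoderm intestinal, and in mice its loss lets stomach-like or oesophagus-like tissue form in its place. HNF4A and HNF4G are close paralogues that bind the same DNA element and drive enterocyte genes of lipid handling and brush border function, and in mice either one can cover for much of the loss of the other. In the mouse, GATA4 marks the proximal small intestine and is absent from the distal ileum, GATA6 is made along the whole intestine, and GATA5 is found mainly in differentiated epithelial cells. PDX1, not analysed here, acts in the duodenum and pancreas.

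The recovered library totals were 20630889, 20712701 and 16816165 reads in SMP replicates 1, 2 and 3 and 15927028, 16110473 and 18636198 reads in Control replicates 1, 2 and 3. SMP replicate 3 and Control replicate 2 stood apart from the other libraries of their groups. Across genes, SMP replicates 1 and 2 had a correlation of log2 values of 0.990, and SMP replicate 3 had 0.951 and 0.963 with them. Control replicates 1 and 3 had 0.977, and Control replicate 2 had 0.941 and 0.942 with them and 0.947 with SMP replicate 2. The summed level of the 8 smooth muscle markers was 1594, 2174 and 2159 FPKM in SMP replicates 1, 2 and 3 and 993.3, 2781 and 170.4 FPKM in Control replicates 1, 2 and 3. The Y-linked gene EIF1AY had 23.88 to 29.61 FPKM in the SMP libraries and 0 to 0.1873 FPKM in the Control libraries, so the sex of the animals and the treatment cannot be told apart.

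Levels are FPKM, which scales the reads of a gene by its length and by the total of the library, and group values are means ± SD over 3 libraries. All 6 factors passed the expression filter of a mean of at least 1 FPKM. They were read at depths of 1616 to 11312 reads per gene and library, so counting error was small beside the spread between libraries. In bulk tissue, fewer cells of a type and less RNA per cell cannot be told apart.

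CDX2 was the most abundant of the factors in each of the 6 libraries and GATA4 the least abundant in each. By group mean, the order in SMP was CDX2 (244.4 ± 40.3 FPKM), HNF4G (86.1 ± 25.9), HNF4A (75.4 ± 11.2), GATA5 (59.72 ± 10.04), GATA6 (42.6 ± 2.51) and GATA4 (27.2 ± 4.86). In Control it was CDX2 (197.9 ± 20.8 FPKM), HNF4G (115.7 ± 66.1), GATA5 (85.6 ± 15.4), GATA6 (44.1 ± 2.58), HNF4A (44.1 ± 10.2) and GATA4 (27.44 ± 4.604). Of neighbours in the SMP order, HNF4G overlapped HNF4A and HNF4A overlapped GATA5 between libraries, while the other neighbours had separate ranges. In Control, HNF4G overlapped GATA5 and GATA6 overlapped HNF4A. The place of HNF4A was the part of the order that differed between the groups. It stood above GATA5 in 3 of 3 SMP libraries and in 0 of 3 Control libraries. GATA6 stood above HNF4A in 0 of 3 SMP libraries and in 2 of 3 Control libraries. GATA5 stood above GATA6 in all 6 libraries.

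**Figure D1:**
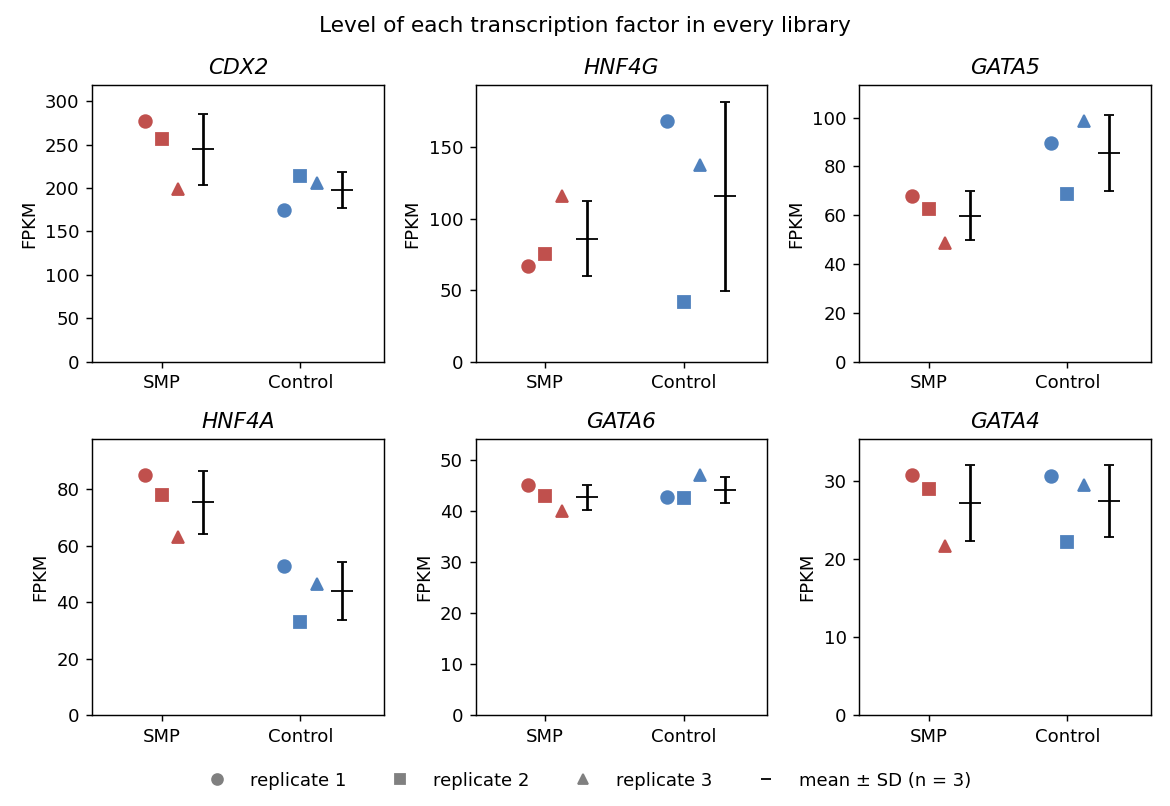
Level of each of the 6 transcription factors in FPKM (vertical axis, from 0, with its own scale in each panel) in the 3 SMP and 3 Control libraries; points are libraries and bars are mean ± SD. HNF4A was at 63.20 to 85.15 FPKM in SMP and 32.90 to 52.94 FPKM in Control, and GATA5 at 48.51 to 67.90 FPKM in SMP and 68.56 to 98.60 FPKM in Control, while the groups overlapped for the other 4.

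None of the 6 factors passed the test of SMP against Control at an adjusted p under 0.05, by limma's linear model on log2(FPKM + 1) with Benjamini-Hochberg adjustment over the 11471 genes tested. Over all those genes the test called 642, or 5.6%. An unadjusted p under 0.05 was reached by 2 of the 6 factors (HNF4A and GATA5) and by 25.8% of all genes tested. For 6 factors a count of 2 is close to that share. On the reads recovered from the FPKM values, voom called 0 of the 6. The groups did not overlap for 2 of the 6: HNF4A was higher in SMP, as were 21.1% of all genes tested with no overlap, and GATA5 was lower in SMP, as were 11.5%. The median log2 difference of the 6 factors was -0.03, beside 0.09 over all genes tested.

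HNF4A, a nuclear receptor that drives enterocyte genes, had 85.15, 77.93 and 63.20 FPKM in SMP replicates 1, 2 and 3. In Control replicates 1, 2 and 3 it had 52.94, 32.90 and 46.40 FPKM. Each SMP library lay above each Control library, and the smallest gap was between SMP replicate 3 and Control replicate 1. The log2 difference was 0.78 (SE 0.22, 95% interval 0.26 to 1.29), a fold of 1.71 with an interval of 1.20 to 2.45. Its adjusted p from limma was 0.0832, and the unadjusted p was 0.00902. The difference stayed positive in each fit that left out 1 library, between 0.59 and 0.92, with an adjusted p of 0.0653 to 0.251. With SMP replicate 3 and Control replicate 2 both left out, which leaves 2 libraries per group, it was 0.71 with an adjusted limma p of 0.0159. These libraries were the ones that stood apart in these same data, so that p is not independent support.

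HNF4G, the paralogue of HNF4A that in the mouse gut is made mainly by differentiated enterocytes, had 67.18, 75.60 and 115.6 FPKM in SMP replicates 1, 2 and 3, and 168.2, 41.43 and 137.5 FPKM in Control replicates 1, 2 and 3. Control held both the highest and the lowest library, which were 4.06-fold apart, the widest range of the 6 factors. The SD was 30.03% of the mean in SMP and 57.2% in Control. The log2 difference was -0.24 (SE 0.52, adjusted p = 0.809 by limma), and its 95% interval of -1.47 to 0.996 covers folds of 0.36 to 1.99. The value turned on single Control libraries: without Control replicate 2 the log2 difference was -0.85 (adjusted p = 0.0913 by limma), and without Control replicate 1 it was 0.15 (adjusted p = 0.897 by limma). With SMP replicate 3 and Control replicate 2 both left out it was -1.08, with an adjusted limma p of 0.0114.

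The summed level of both HNF4 genes was 152.3, 153.5 and 178.8 FPKM in SMP and 221.1, 74.33 and 183.9 FPKM in Control. The group means were close, at 161.5 ± 14.9 FPKM in SMP and 159.8 ± 76.3 FPKM in Control. The HNF4A share of the sum was 55.9%, 50.8% and 35.4% in SMP replicates 1, 2 and 3 and 23.9%, 44.3% and 25.2% in Control replicates 1, 2 and 3. The lowest SMP share lay below the highest Control share, so the groups overlapped. On the log2 scale the ratio of HNF4A to HNF4G was higher by 1.03 in SMP, with a two-sided exact permutation p of 0.2 and an adjusted p of 0.6 over the 3 ratios tested. With 3 libraries against 3 the smallest p this test can give is 0.1.

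CDX2, the homeobox factor that specifies intestinal epithelium, had 277.1, 256.7 and 199.3 FPKM in SMP replicates 1, 2 and 3, and 174.3, 213.3 and 206.1 FPKM in Control replicates 1, 2 and 3. SMP replicates 1 and 2 were above all Control libraries, and SMP replicate 3 fell among them. CDX2 ranked between 175 and 298 by FPKM among the 21911 genes in each library. The log2 difference was 0.29 (SE 0.18, 95% interval -0.13 to 0.72, adjusted p = 0.354 by limma), so a fold between 0.91 and 1.65 was within its error. With SMP replicate 3 and Control replicate 2 both left out it was 0.49, with an adjusted limma p of 0.0428.

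GATA4, which in mice holds jejunal identity against ileal identity, had 30.84, 29.02 and 21.65 FPKM in SMP replicates 1, 2 and 3, and 30.64, 22.16 and 29.51 FPKM in Control replicates 1, 2 and 3. The ranges of the groups nearly coincided, and the lowest library of each was the one that stood apart. The log2 difference was -0.02 (SE 0.20, 95% interval -0.48 to 0.45, adjusted p = 0.971 by limma), and its sign changed with the normalization and with the library left out.

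GATA6, which in the mouse gut supports crypt cell proliferation, was the steadiest of the factors, with 44.98, 42.95 and 39.98 FPKM in SMP and 42.73, 42.52 and 47.10 FPKM in Control. The highest library was 1.18-fold above the lowest, and the SD was 5.89% of the mean in SMP and 5.86% in Control. The log2 difference was -0.05 (SE 0.13, 95% interval -0.36 to 0.26, adjusted p = 0.848 by limma), and its sign changed under quantile normalization. The interval covers folds of 0.78 to 1.20, the narrowest of the 6.

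GATA5 had 67.90, 62.76 and 48.51 FPKM in SMP replicates 1, 2 and 3, and 89.50, 68.56 and 98.60 FPKM in Control replicates 1, 2 and 3. Each SMP library was lower than each Control library, but SMP replicate 1 and Control replicate 2 were separated by less than 1 FPKM. The log2 difference was -0.51 (SE 0.20, 95% interval -0.99 to -0.03), a fold of 0.70 with an interval of 0.50 to 0.98. Its adjusted p from limma was 0.172, and the unadjusted p was 0.0401. In the fits that left out 1 library it lay between -0.66 and -0.37, with an adjusted limma p of 0.0793 to 0.437. With SMP replicate 3 and Control replicate 2 both left out it was -0.52 with an adjusted limma p of 0.0246.

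In that fit of 2 libraries per group, 4 of the 6 factors (HNF4A, HNF4G, CDX2 and GATA5) passed an adjusted p of 0.05. It also called 26.7% of the 11416 genes tested there, against 5.6% with all libraries. The share of genes called therefore moved with the choice of libraries for the whole transcriptome. Leaving out the libraries that stood apart in these same data narrows the spread within groups, so these calls are not independent support.

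**Figure D2:**
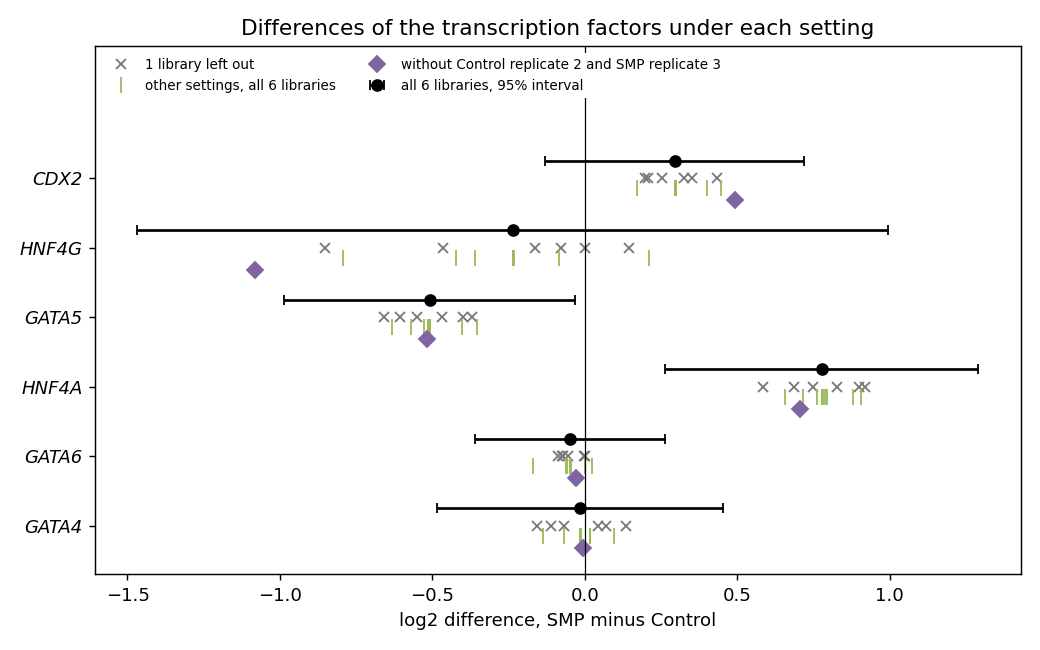
Log2 difference, SMP minus Control (horizontal axis), for each transcription factor: black points and bars are the estimate and 95% interval with all 6 libraries, crosses the fits without 1 library, green ticks the other settings with all libraries, and purple diamonds the fit without both SMP replicate 3 and Control replicate 2. HNF4A stays to the right of 0 and GATA5 to the left in every fit shown, CDX2 stays to the right, and HNF4G, GATA6 and GATA4 have fits on both sides of 0.

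GATA5 made up 47.2%, 46.6% and 44.0% of the summed FPKM of GATA4, GATA5 and GATA6 in SMP replicates 1, 2 and 3, and 55.0%, 51.5% and 56.3% in Control replicates 1, 2 and 3. The GATA4 share averaged 20.9% ± 1.06 in SMP and 17.4% ± 1.20 in Control, and the GATA6 share 33.2% ± 2.74 in SMP and 28.3% ± 3.11 in Control. The family sum was 110.1 to 143.7 FPKM in SMP and 133.2 to 175.2 FPKM in Control, with overlap. The blood-lineage members of the family, looked up after the values of the others were seen, were low: GATA1 was at most 0.204 FPKM in SMP and 0.259 FPKM in Control, GATA2 at most 1.08 FPKM in SMP and 1.53 FPKM in Control, and GATA3 at most 1.54 FPKM in SMP and 1.66 FPKM in Control.

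A ratio of 2 factors within a library does not depend on how the library was scaled. The ratio of GATA4 to GATA6 was 0.686, 0.676 and 0.542 in SMP and 0.717, 0.521 and 0.627 in Control, a log2 difference of 0.03 with a two-sided exact permutation p of 0.9. The ratio of GATA4 to CDX2 was 0.111, 0.113 and 0.109 in SMP and 0.176, 0.104 and 0.143 in Control, a log2 difference of -0.31 with an exact permutation p of 0.4 and an adjusted p of 0.6. SMP libraries were close to each other in this ratio, while Control replicate 2 lay below all of them and the other Control libraries above.

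Of 4 further ratios, chosen after the levels were seen and therefore given with no test, HNF4A to GATA5 set the groups farthest apart. It was 1.254, 1.242 and 1.303 in SMP replicates 1, 2 and 3, and 0.5915, 0.4799 and 0.4706 in Control replicates 1, 2 and 3, a difference of 1.31 on the log2 scale. HNF4A and GATA5 were the 2 factors whose groups did not overlap, in opposite directions, so their ratio had to separate the groups. SMP replicate 3 and Control replicate 2, which stood apart in correlation across genes, lay close to the other libraries of their groups in this ratio. The ratio was chosen from these same values, so that closeness is not independent support. The ratio of GATA5 to GATA4 was 2.201, 2.163 and 2.240 in SMP and 2.921, 3.094 and 3.341 in Control, a log2 difference of -0.50. The ratio of GATA5 to GATA6 was 1.510, 1.461 and 1.213 in SMP and 2.094, 1.612 and 2.093 in Control. HNF4A to CDX2 was 0.3073, 0.3036 and 0.3171 in SMP, and 0.3038, 0.1542 and 0.2251 in Control, where replicate 1 was level with SMP and the other two were lower.

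**Figure D3:**
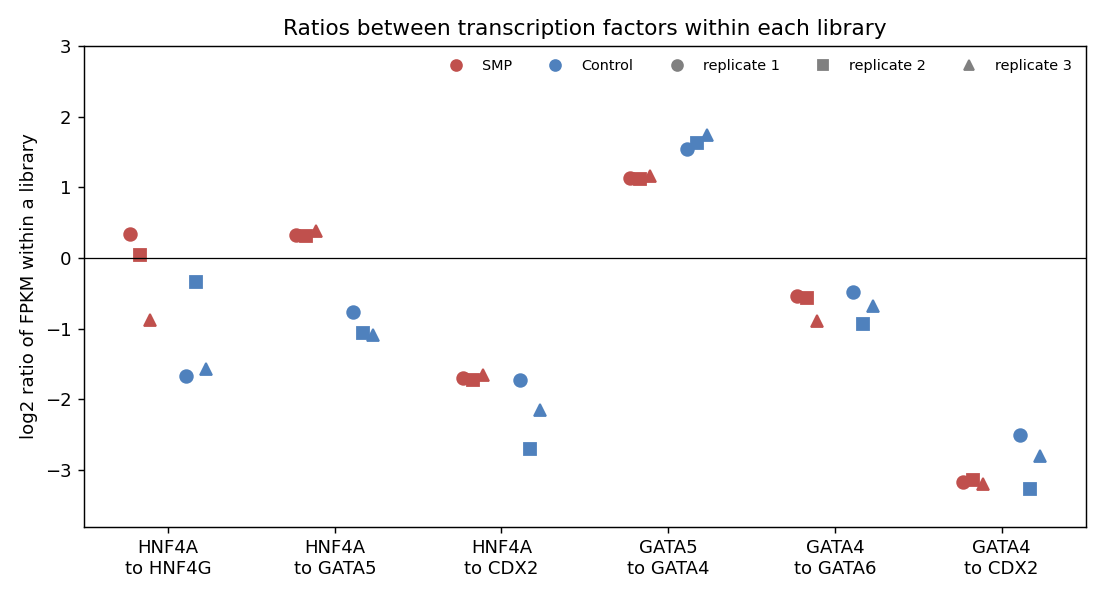
Log2 ratio of the FPKM of 2 transcription factors within each library (vertical axis) for 6 pairs, with SMP to the left of Control and marker shapes for replicates 1, 2 and 3. The HNF4A to GATA5 ratio lies above 0 in all SMP libraries and below 0 in all Control libraries, a difference of 1.31. That ratio pairs the 2 factors whose groups did not overlap, in opposite directions, so it had to separate the groups. HNF4A to GATA5, HNF4A to CDX2 and GATA5 to GATA4 were chosen after the levels were seen and have no test. The planned ratio of GATA4 to GATA6 overlaps with a difference of 0.03.

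Among the factors themselves, likeness was measured as the root mean square distance between log2 profiles over the 6 libraries, each centred on its own mean. GATA4 and GATA6 were the closest pair, at 0.167, and CDX2 and HNF4G the most distant, at 0.831. The paralogues HNF4A and HNF4G were also far apart, at 0.754. The profiles are not scaled, so the distance grows with the spread of each factor. All pairs with HNF4G, the factor of widest range, lay at 0.6265 to 0.8308, and GATA6 was the steadiest. The distances therefore do not show whether 2 factors are controlled together.

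By the same measure, the nearest gene with a symbol to HNF4A was SLC7A1, a cationic amino acid transporter, at 0.0707, followed by LBR, the lamin B receptor, at 0.0769 and SETD9 at 0.0771. SLC7A1 had 5.17 ± 0.537 FPKM in SMP and 2.61 ± 0.729 FPKM in Control. The nearest to HNF4G were TMEM236 at 0.104, GZMA, a granule protease of cytotoxic lymphocytes, at 0.109, and ABCB6, an ABC transporter, at 0.117. TMEM236 had 25.82, 27.54 and 38.17 FPKM in SMP and 59.38, 16.24 and 45.66 FPKM in Control, the same order of libraries as HNF4G.

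CDX2 was nearest to BRIX1, a ribosome assembly factor, at 0.0316, to HMGN1, a nucleosome-binding protein, at 0.0410, and to PTMA, prothymosin alpha, at 0.0436. GATA4 was nearest to the mitochondrial glutamate carrier SLC25A22 at 0.0433, to MTX2 at 0.0492 and to MLLT6 at 0.0494. GATA5 was nearest to the deubiquitinase STAMBPL1 at 0.0358, to SERINC2 at 0.0465 and to the forkhead factor FOXS1 at 0.0569. GATA6 was nearest to CYB561D2 at 0.0206, to MIEF2 at 0.0291 and to RNF170 at 0.0347.

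Both groups showed the epithelial markers of intestine. The 9 epithelial markers with a row summed to 3271 to 3369 FPKM in SMP and 2820 to 3608 FPKM in Control, and 0 of the 9 were called by limma. Relative to the mean log2 level of these markers, HNF4A was at -1.18, -1.31 and -1.57 in SMP and -1.84, -2.27 and -2.15 in Control, again with no overlap and with a difference of 0.74. GATA5 on the same scale was at -1.498, -1.614 and -1.941 in SMP and -1.09, -1.24 and -1.08 in Control, a difference of -0.55. For CDX2 the difference was 0.26, for HNF4G -0.27, for GATA6 -0.09 and for GATA4 -0.05.

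Markers of other cell types varied among libraries beside these values, and their part in the differences was not tested beyond the 2 covariate fits given here. All 8 smooth muscle markers had a positive log2 difference and 0 of the 8 were called. Their sum in Control lay on both sides of SMP, at 2781 FPKM in replicate 2 and 170.4 FPKM in replicate 3. In SMP it was 1594 to 2174 FPKM, so the shared sign does not mean that each Control library was lower. With the smooth muscle mean as a covariate, the log2 difference of HNF4A was 0.91 (adjusted p = 0.135 by limma) and that of HNF4G changed sign to 0.21. With the epithelial mean as a covariate, HNF4A was at 0.71 (adjusted p = 0.0686 by limma). The 6 fibroblast markers summed to 419.8 to 754.2 FPKM in SMP and 180.8 to 696.1 FPKM in Control. The 4 leukocyte markers summed to 18.85 to 22.56 FPKM in SMP and 18.18 to 37.21 FPKM in Control, the 3 endothelial markers with a row to 14.57 to 19.68 FPKM in SMP and 11.41 to 23.13 FPKM in Control, and the 4 enteroendocrine markers to 36.48 to 65.54 FPKM in SMP and 36.59 to 93.45 FPKM in Control. The 3 markers of the duodenal Brunner glands summed to 40.84 to 127.8 FPKM in SMP and 137.1 to 226.4 FPKM in Control, but nearly all of this was TFF2, which was not called (adjusted p = 0.181 by limma). AQP5 was at most 0.517 FPKM and overlapped between the groups, and MUC6 had 1 read in all 6 libraries together. Markers of pancreas (3 of 9 with a row), stomach (5 of 8) and mesothelium (2 of 5) summed to at most 0.773, 2.66 and 0.923 FPKM in SMP and 0.723, 0.818 and 0.781 FPKM in Control. None of the markers with a row was at 0 in all 6 libraries.

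The factors act with cofactors, and 1 of the 9 tested partners was called, lower in SMP. NR0B2, the small heterodimer partner, a repressor that binds HNF4A among other nuclear receptors, had 27.20, 29.32 and 17.98 FPKM in SMP and 43.47, 51.73 and 52.09 FPKM in Control. All SMP libraries were below all Control libraries, and the log2 difference was -0.98 (SE 0.21, adjusted p = 0.0462 by limma). This call sat near the threshold and was lost when any library other than SMP replicate 3 was left out, with differences of -0.94 to -1.11. It was also lost with the epithelial covariate (adjusted p = 0.0524 by limma), with the smooth muscle covariate (adjusted p = 0.135 by limma), with no filter and with the replicate block.

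ZFPM1, a cofactor of GATA proteins, had 31.87, 29.83 and 22.30 FPKM in SMP and 47.89, 36.10 and 39.22 FPKM in Control (log2 difference -0.54, adjusted p = 0.132 by limma). The SMAD pathway mediator SMAD4 had a log2 difference of 0.28 (adjusted p = 0.241 by limma). The acetyltransferases EP300 and CREBBP had log2 differences of 0.29 and 0.18, with adjusted p of 0.327 and 0.523 by limma. The coactivators NCOA1, NCOA2 and PPARGC1A had log2 differences of -0.28, 0.08 and 0.07, with adjusted p of 0.366, 0.807 and 0.860 by limma. ZFPM2 was below the filter, at a mean of 0.381 FPKM. The median over the 9 was 0.08, close to the 0.09 of all genes.

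Of the 29 other gut transcription factors listed, 28 had a row, 23 passed the filter, 1 was called higher in SMP and none lower. The median log2 difference was 0.15. The one called was EHF, an epithelial ETS factor, with 8.213, 7.403 and 9.012 FPKM in SMP and 4.851, 4.206 and 5.389 FPKM in Control (log2 difference 0.66, SE 0.14, adjusted p = 0.0457 by limma). Its groups did not overlap, but the call was lost without any 1 of the 6 libraries, at differences of 0.59 to 0.73. It was also lost under quantile normalization (0.57, adjusted p = 0.0819 by limma) and median-ratio scaling (0.56, adjusted p = 0.0844 by limma), with the smooth muscle covariate, with no filter and with the replicate block.

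Genes with known input from these factors were taken as lists compiled from general knowledge, mostly of mouse and human gut, and several genes stand in more than 1 list. Of 11 tested genes with HNF4 input, 6 had a positive log2 difference and 5 a negative one. The differences ran from -0.90 to 1.27, with a median of 0.08. Among the 11, 0 were called higher and 1 lower. That gene was APOA1, the main protein of high-density lipoprotein, with 4503 ± 527 FPKM in SMP and 8470 ± 1684 FPKM in Control (log2 difference -0.90, adjusted p = 0.0495 by limma). The call of APOA1 was lost without any 1 of the 6 libraries, at differences of -0.78 to -1.07, and in 9 of the other 13 alternatives.

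Of 10 tested genes with CDX input, 1 was called higher and 0 lower, with a median of 0.10. It was GCG, which encodes glucagon and the GLP peptides of enteroendocrine L cells, with 22.33, 25.44 and 34.01 FPKM in SMP and 0.4433, 5.807 and 4.120 FPKM in Control (log2 difference 2.92, adjusted p = 0.0339 by limma). The groups did not overlap, and the call was lost without Control replicate 3 or any 1 SMP library. It was also lost with a pseudocount of 0.1 (adjusted p = 0.0631 by limma), with no filter (adjusted p = 0.0773 by limma) and with the smooth muscle covariate (adjusted p = 0.102 by limma).

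Of 3 tested genes with GATA4 input in mice, 1 was called lower. The median was 0.76, but the list mixes proximal and ileal genes, so it does not measure a response in 1 direction. The called gene was GIP, the incretin hormone of proximal K cells. It had 25.89, 30.53 and 32.39 FPKM in SMP and 112.4, 81.60 and 94.09 FPKM in Control (log2 difference -1.66, adjusted p = 0.00739 by limma). FABP6, the ileal bile acid-binding protein, varied from 3.596 to 50.82 FPKM in SMP and from 0.5841 to 9.151 FPKM in Control and was not called (adjusted p = 0.222 by limma). SLC10A2, the ileal bile acid uptake transporter, was below the filter, at 1.39 ± 0.196 FPKM in SMP and 0.207 ± 0.0200 FPKM in Control.

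Of the 3 genes with PDX1 input, GIP and ADA were called lower and SST was not, with a median of -1.66. ADA, the adenosine deaminase that is strong in the mouse duodenum, had 5.370, 6.617 and 8.626 FPKM in SMP and 617.6, 116.8 and 444.0 FPKM in Control (log2 difference -5.36, adjusted p = 0.00833 by limma). Every SMP library was far below every Control library. The calls of GIP and ADA were lost without Control replicate 3 or without SMP replicate 2, with differences of -1.67 and -1.68 for GIP and -5.12 and -5.35 for ADA.

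Markers of gut position differed between the groups beside the factors, and their part in the values of HNF4A, GATA5 and the others was not tested. LCT and ALPI had no identifier in the name table. Of the other 7 markers of proximal small intestine, all tested, 4 were called lower in SMP (ADA, GIP, SCT and MLN) and 0 higher, with a median log2 difference of -1.66. SCT, the hormone secretin, had 0.390 ± 0.144 FPKM in SMP and 20.7 ± 14.0 FPKM in Control (log2 difference -3.66, adjusted p = 0.0235 by limma), and its call was lost without SMP replicate 1 or 2 or Control replicate 1 or 3. It was also lost by voom on the recovered reads (adjusted p = 0.0567), with no filter (adjusted p = 0.0566 by limma) and with the smooth muscle covariate (adjusted p = 0.0642 by limma). MLN, the hormone motilin, had 1 to 2 reads per library in SMP, against 58 to 267 reads in Control (adjusted p = 0.0459 by limma). That call was lost without any 1 SMP library, under quantile normalization (adjusted p = 0.0522 by limma), with no filter and with the smooth muscle covariate, and without Control replicate 1 or 3 MLN did not pass the filter. The iron genes CYBRD1 (log2 difference -1.62, adjusted p = 0.0605 by limma) and SLC40A1 (-3.12, adjusted p = 0.0820 by limma) and the retinol-binding RBP2 (-0.13, adjusted p = 0.786 by limma) were not called.

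Of the 4 tested ileal markers, AMN, a part of the vitamin B12 receptor, was called lower, with 31.7 ± 8.21 FPKM in SMP and 73.4 ± 9.56 FPKM in Control (log2 difference -1.21, adjusted p = 0.0301 by limma). The call was lost without SMP replicate 1 or 2 or Control replicate 1 or 3, with no filter and with the smooth muscle covariate. FABP6 (2.24), SLC51A (0.59) and SLC51B (-0.10), which handle bile acids, were not called, and the median was 0.24. Besides SLC10A2, CUBN was below the filter, with 0.2548, 0.5576 and 1.615 FPKM in SMP and at most 0.0595 FPKM in Control, and GUCA2A had no identifier in the name table.

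Of the 6 tested markers of large intestine, 4 were called higher and 1 lower, with a median of 1.83. SLC26A3, the chloride-bicarbonate exchanger, had 19.39, 19.36 and 20.93 FPKM in SMP and 0.3652, 0.5260 and 0.5350 FPKM in Control (log2 difference 3.83 on the scale of log2(FPKM + 1), which understates the fold of low genes, adjusted p = 1.713e-05 by limma). OTOP2, a proton channel, had 24.66, 21.69 and 21.40 FPKM in SMP and 0.8787, 1.737 and 1.308 FPKM in Control (log2 difference 3.37, adjusted p = 3.013e-04 by limma). Both calls held in all 19 alternative settings. CA4, a carbonic anhydrase, rose by 2.66 on the log2 scale (adjusted p = 0.0328 by limma), and its call was lost without SMP replicate 1 or 2 or Control replicate 1 or 3, with no filter and with the smooth muscle covariate. BEST4, a channel of a scattered epithelial cell type found in small and large intestine, rose by 1.01 (adjusted p = 0.0490 by limma), a call lost without any 1 of the 6 libraries and in 9 of the other 13 alternatives.

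AQP8, a water channel, went the other way, with 23.3 ± 8.17 FPKM in SMP and 152.9 ± 44.0 FPKM in Control (log2 difference -2.68, adjusted p = 0.0132 by limma), a call lost without SMP replicate 2 or Control replicate 3 and with the smooth muscle covariate (adjusted p = 0.0553 by limma). MUC2, the secreted mucin of goblet cells, was at 36.2 ± 14.6 FPKM in SMP and 37.4 ± 1.31 FPKM in Control (adjusted p = 0.819 by limma), and CA1 had no identifier in the name table. The named regional markers differed by up to 5.36 on the log2 scale. The largest difference among the 6 analysed transcription factors, which leave out CDX1 and PDX1, was 0.78. The lists were compiled with earlier results of these data known. Neither their directions nor this contrast of sizes is therefore independent evidence of gut position.

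**Figure D4:**
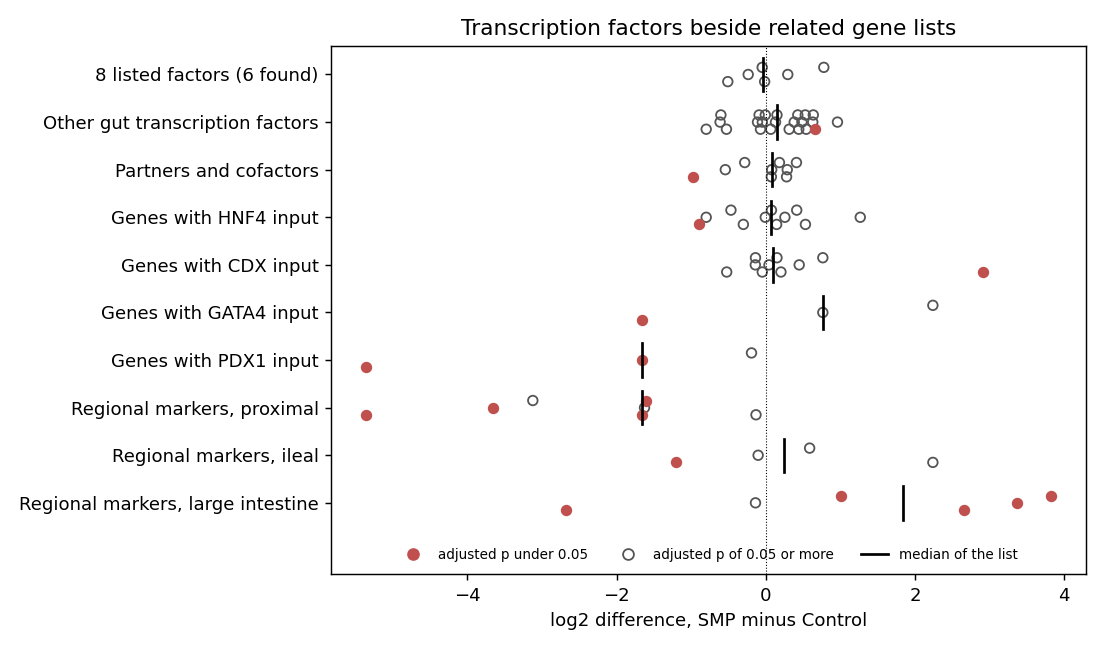
Log2 difference, SMP minus Control (horizontal axis), for each tested gene of the transcription factor list and of the related lists, 1 row per list, with filled points at an adjusted limma p under 0.05, open points at 0.05 or more and a bar at each list's median. The 6 factors, without CDX1 and PDX1, lie between -0.51 and 0.78 with none filled. The proximal list has its median at -1.66 and the large intestine list at 1.83, but the lists were compiled with earlier results of these data known.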

How the data were processed

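RNA-seq was run on 3 SMP and 3 Control pig gut samples. Per the labels' protocols, libraries came from a NEBNext Ultra kit; strand and multi-mapping handling are unstated, so overlapping genes and near-identical copies are uncertain. The authors deposited FPKM for 21911 genes. The submitters' processing notes name HISAT2 2.0.5, DESeq2 1.16.1 and StringTie without their roles, and the mouse build mm10, whereas identifiers are pig Ensembl ones, so coordinates are left out. Symbols were found for 14153 identifiers.

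Whole reads were recovered from the FPKM steps for 100% of genes. Genes averaging at least 1 FPKM (11471) were fitted as log2(FPKM + 1) with limma 3.58.1 in R 4.3.3. The model held treatment only, with trended empirical Bayes and Benjamini-Hochberg adjustment at 0.05. The same fit was also run on simulated reads with a fixed dispersion and no outlying libraries. Voom on the recovered reads called 754 genes. Of 5 planned ratios, 3 could be computed; each was compared by a two-sided exact permutation over 20 assignments. Members and lists were chosen with earlier results of these data known. The text names all members, the 3 nearest genes of each, all partners and regional markers (a few are not reported here), and per other list up to 4 called genes or else the 2 with the smallest p; exceptions are marked. Alternatives covered scaling, filter, pseudocount, weights, covariates, the replicate block and libraries left out. No protein or promoter sequences were used here.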

Additional observations from a re-analysis of the deposited data

How the results depend on the processing

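None of the 6 factors was called by limma with all 6 libraries, nor in 16 of the 19 alternatives. Quantile normalization called 1 (HNF4A, log2 difference 0.88, adjusted p = 0.0384), beside 6.16% of all genes. Array weights called 3 (HNF4A 0.76, GATA5 -0.53 and CDX2 0.40), and called 38.1% of all genes. Leaving out both SMP replicate 3 and Control replicate 2, the libraries that stood apart, called 4, HNF4G (-1.083) among them, and called 26.7% of all genes. HNF4A remained positive (0.59 to 0.92) and GATA5 negative (-0.66 to -0.35) in all 19. GATA4 turned positive under quantile normalization (0.016), array weights (0.017) and the smooth muscle covariate (0.097), and ranged from -0.157 to 0.134 with 1 library left out. GATA6 turned positive under quantile normalization (0.023) and the smooth muscle covariate (0.001). HNF4G turned positive under the smooth muscle covariate (0.209) and ranged from -0.853 to 0.145 with 1 library left out. The log2 ratio of GATA4 to GATA6 ranged from -0.088 to 0.143. The cause of these moves was not tested.

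Among uncalled genes, NCOA2 turned negative under quantile normalization (-0.049), median-ratio scaling (-0.013), array weights (-0.025) and without both libraries that stood apart (-0.110), with -0.059 as its lowest value and 0.218 as its highest with 1 left out. PPARGC1A did so in the same 4 (-0.057, -0.008, -0.155 and -0.232), with -0.149 to 0.200 with 1 left out. RBP2 turned positive under quantile normalization (0.131) and without both (0.047), with -0.430 to 0.019 with 1 left out. SLC51B turned positive under quantile normalization (0.089) and the smooth muscle covariate (0.080), with -0.277 to 0.093 with 1 left out. MUC2 turned positive under array weights (0.264) and without both (0.266), with -0.369 to 0.244 with 1 left out.

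Median-ratio scaling moved the median of all genes to -0.013, against 0.0896 as deposited; HNF4A was then at 0.655 (adjusted p = 0.102). Genes called numbered 642 with all libraries, 258 with no filter, 4369 with array weights, 64 with the smooth muscle covariate and 3043 without both. They numbered 53, 43 and 1065 without SMP replicate 1, 2 and 3, and 146, 1058 and 47 without Control replicate 1, 2 and 3. Same-numbered libraries showed no common direction of deviation from their group means (correlations -0.306, 0.32 and -0.037). With 3 libraries per group this check cannot exclude pairing. With the replicate block 236 genes and 0 factors were called, and HNF4A stayed at 0.778 (adjusted p = 0.133 by limma). Small changes in 3 libraries per group were not detectable: the intervals of CDX2, GATA4 and HNF4G reach folds of 1.65, 1.37 and 1.99.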
